A study of Mus musculus with 18 samples.

Results

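The 10 genes described here are targets of Wnt signalling or markers of the hepatocytes that surround the central vein of the liver lobule: Glul, Axin2, Lgr5, Rnf43, Znrf3, Tbx3, Lect2, Rgn, Slc1a2 and Rhbg. They were chosen by symbol, and all 10 were found among the 35441 genes of the deposited table. All 10 passed the filter on summed reads that kept 14533 genes for testing. Liver RNA came from 18 male mice on a C57/BL6N background, 3 in each of 6 groups. Wild-type (WT) mice were age- and sex-matched littermates. Lipa-/- mice lacked exon 4 of Lipa, the gene of the lysosomal acid lipase, in all cells (a tm1a allele crossed to CMV-Cre). The third group was Lipa-/- mice given rAAV8.hAAT.LIPA, a vector with the human LIPA sequence under the hepatocyte-specific human alpha-1 antitrypsin promoter, injected into the tail vein in young adulthood. Livers were taken 12 weeks (labelled 3 months) or 34 weeks (labelled 8 months) after injection. By the study's methods most untreated Lipa-/- mice of the later time point had reached humane endpoints earlier, so that the 34-week Lipa-/- group is not matched in age to the others. All 34-week livers carry another label prefix than the 12-week livers, and Lipa-/- mouse 5 of the 12-week group carries a prefix of its own. The labels do not say what the prefix stands for, and prefix and time point cannot be told apart.

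Hepatocytes differ along the axis from the portal tract to the central vein, a pattern called zonation. Endothelial cells at the central vein release Wnt2, Wnt9b and the Wnt-enhancing protein Rspo3. In the hepatocytes next to them, beta-catenin (Ctnnb1) is stabilised, enters the nucleus and, with TCF/LEF factors such as Tcf7l2, switches on pericentral genes and feedback genes of the pathway. Periportal hepatocytes carry out urea synthesis and gluconeogenesis, while pericentral hepatocytes make glutamine and metabolise drugs.

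Libraries held between 17527824 and 25833059 estimated reads. Values are CPM, read counts relative to library size, scaled with trimmed mean of M values (TMM) factors, which spanned 0.587 to 1.69 and were lowest in the treated 12-week livers and highest in the 34-week Lipa-/- livers. A gene was called when its edgeR adjusted p was under 0.05 and its absolute log2 fold change over 1. Mouse Lipa reads were 3768 to 8307 in WT livers and 336 to 859 in the Lipa-/- and treated livers, and the vector's human LIPA gave 13440 to 50262 reads in each treated liver. The untreated Lipa-/- livers had 0 human LIPA reads, and 34-week WT mouse 2 had 23. The summed level of 5 hepatocyte markers (Alb, Apoa1, Ttr, Hnf4a and Serpina1b) was 58113 to 78287 CPM in WT livers, 37890 to 56999 CPM in 12-week Lipa-/- livers and 22121 to 48303 CPM in 34-week Lipa-/- livers. That of 8 macrophage markers was 92.8 to 392 CPM in WT and 4125 to 8966 CPM in Lipa-/- livers. In whole liver, fewer cells of a type and less RNA per cell cannot be told apart. The labels do not say which mice were littermates of each other, and p-values measure the spread between these mice.

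The genes lie on several chromosomes (GRCm39, GENCODE vM39). Glul is at chr1:153775690-153785469 (+), Axin2 at chr11:108811169-108841609 (+), Rnf43 at chr11:87553548-87626377 (+) and Znrf3 at chr11:5226324-5394939 (-). Lgr5 is at chr10:115286216-115423685 (-), Tbx3 at chr5:119806298-119822797 (+) and Lect2 at chr13:56684477-56696569 (-). Rgn is at chrX:20413897-20428328 (+), Slc1a2 at chr2:102488574-102621129 (+) and Rhbg at chr3:88150181-88162043 (-). RefSeq promoter sequences (GRCm38.p6, another build, so that their positions do not line up with the ones above) were given for 5 genes: Glul, Axin2, Rnf43, Lect2 and Slc1a2. The 250 bases before each start were searched on both strands for the TCF/LEF core, spelled CTTTG and then A or T at each of the next 2 positions. It was present in 14.8% of 32851 RefSeq promoters of this length. Lect2 and Slc1a2 each held 1 match, and Glul, Axin2 and the 2 Rnf43 promoters held none. A match is a string of letters and not a shown binding site, and a factor can bind outside this window. The 4 sequences below are shown to compare the 2 promoters with a match with those of glutamine synthetase and of the feedback gene Axin2, capitals marking the core, which reads ATCAAAG here because it lies on the opposite strand. The match began 32 bases before the Lect2 start and 207 bases before the Slc1a2 start. The sequences are at chr13:56548539-56548788 (- strand), chr2:102706188-102706437, chr1:153899679-153899928 and chr11:108920099-108920348 (+ strand), each 5′ to 3′ along its gene.
Lect2: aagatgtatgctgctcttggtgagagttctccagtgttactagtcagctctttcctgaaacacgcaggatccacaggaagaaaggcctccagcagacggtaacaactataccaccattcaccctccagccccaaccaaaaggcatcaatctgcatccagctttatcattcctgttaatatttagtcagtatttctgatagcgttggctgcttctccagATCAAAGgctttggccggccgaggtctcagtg
Slc1a2: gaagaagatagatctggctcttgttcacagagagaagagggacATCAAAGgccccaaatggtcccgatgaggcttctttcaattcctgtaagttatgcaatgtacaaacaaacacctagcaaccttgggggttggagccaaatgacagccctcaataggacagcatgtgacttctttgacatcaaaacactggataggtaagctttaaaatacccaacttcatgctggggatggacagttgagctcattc
Glul: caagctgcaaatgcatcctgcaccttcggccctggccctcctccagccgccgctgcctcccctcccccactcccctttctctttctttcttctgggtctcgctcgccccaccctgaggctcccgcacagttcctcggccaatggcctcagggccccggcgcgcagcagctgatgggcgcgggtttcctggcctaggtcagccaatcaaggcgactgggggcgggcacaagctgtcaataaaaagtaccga
Axin2: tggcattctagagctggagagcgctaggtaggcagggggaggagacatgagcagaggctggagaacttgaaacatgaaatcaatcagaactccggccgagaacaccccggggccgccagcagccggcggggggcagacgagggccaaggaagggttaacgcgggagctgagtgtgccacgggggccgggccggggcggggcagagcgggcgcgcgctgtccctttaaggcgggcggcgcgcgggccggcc

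Per length of transcript, in TPM (a share of all transcripts corrected for length), the levels of the 10 genes differed widely. In 12-week WT livers Rgn stood at 864 ± 84.1 TPM, Glul at 316 ± 67.8 and Lect2 at 197 ± 5.93 (mean ± SD, n = 3). Slc1a2 followed at 30.4 ± 2.76 TPM. Rhbg, Rnf43 and Tbx3 lay between 2.07 and 5.38 TPM on average, and Lgr5, Axin2 and Znrf3 between 0.688 and 1.02 TPM. The enzymes and secreted products were thus at high levels, and the receptor and feedback genes rested on few reads (12 to 230 reads of Axin2 a liver).

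**Figure D1:**
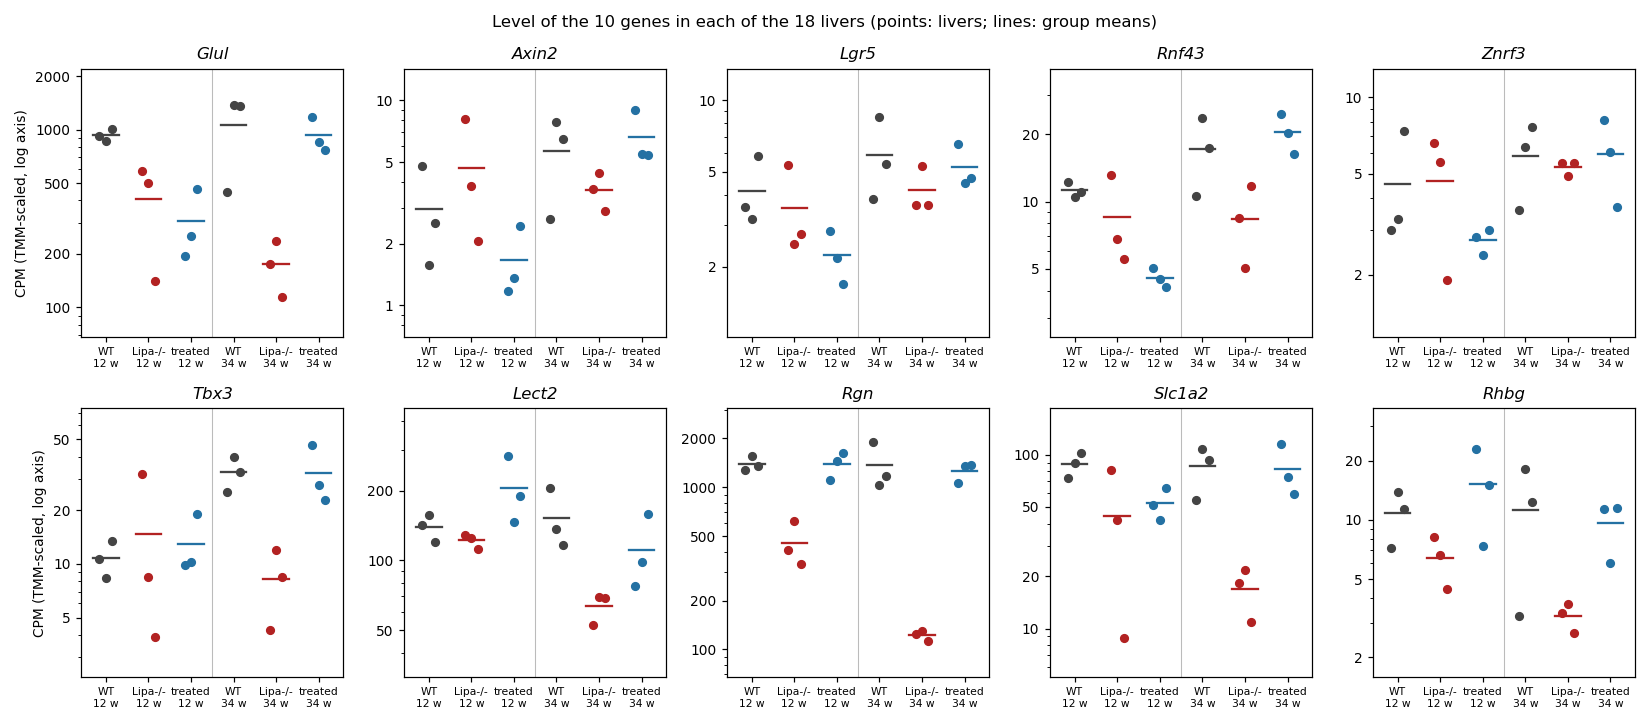
Level of the 10 genes in each liver, in TMM-scaled CPM on a log axis, by group (points are livers, lines are means of 3). Rgn at 34 weeks sits between 113 and 130 CPM in the 3 Lipa-/- livers, below every other liver, while Znrf3 in the same livers (4.87 to 5.52 CPM) lies within the range of WT.

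At 34 weeks, 7 of the 10 genes fell past both thresholds in Lipa-/- livers relative to WT, and none rose. All genes tested give the scale for that count: 36.3% were called in this comparison and 15.7% were called lower. The 10 genes were chosen with earlier results of these data known, so these shares are a scale and not a test. The median log2 fold change of the 10 was -1.53, against -0.03 over all genes. The 7 were Rgn, Glul, Slc1a2, Tbx3, Rhbg, Lect2 and Rnf43, while Axin2, Lgr5 and Znrf3 did not pass. Glutamate and ammonium genes and the secreted or metabolic products thus made up most of the calls, and of the 4 receptor-level and feedback genes only Rnf43 was among them.

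Rgn encodes regucalcin, a calcium-binding gluconolactonase of the hepatocyte. WT mice 1, 2 and 3 had 1915, 1027 and 1173 CPM at 34 weeks, and Lipa-/- mice 4, 5 and 6 had 124, 130 and 113 CPM. Every Lipa-/- liver was below every WT liver by a wide margin. The log2 fold change was -3.49 ± 0.30 (SE, edgeR adjusted p = 2.61e-07). The call held in all 10 other settings and in each of 18 fits that left out 1 liver.

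Glul encodes glutamine synthetase, which in the liver is confined to the last rows of hepatocytes at the central vein. Its 34-week levels were 447, 1379 and 1364 CPM in WT mice 1, 2 and 3 and 175, 237 and 114 CPM in Lipa-/- mice 4, 5 and 6. The groups did not overlap, but WT mouse 1 stood well below its group mates. The log2 fold change was -2.60 ± 0.51 (edgeR adjusted p = 0.000541).

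Slc1a2 (GLT-1) takes up glutamate. It measured 54.9, 108 and 93.6 CPM in the WT livers and 18.3, 21.6 and 10.9 CPM in the Lipa-/- livers, again without overlap. Its log2 fold change was -2.33 ± 0.53 (edgeR adjusted p = 0.00181). Rhbg, an ammonium transporter, measured 3.24, 18.2 and 12.3 CPM in WT and 3.37, 3.71 and 2.65 CPM in Lipa-/- livers. The groups overlapped because WT mouse 1 was as low as the Lipa-/- livers. The log2 fold change of Rhbg was -1.80 ± 0.51 (edgeR adjusted p = 0.00783), and without WT mouse 2 it was -1.27 with adjusted p = 0.0547.

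Tbx3 is a transcription factor that Wnt signalling switches on in pericentral hepatocytes. It measured 25.2, 39.8 and 32.9 CPM in WT and 4.26, 12.0 and 8.45 CPM in Lipa-/- livers, with no overlap (log2 fold change -1.99 ± 0.58, edgeR adjusted p = 0.00915). Without Lipa-/- mouse 4 the value was -1.64 with adjusted p = 0.0532. Lect2, a cytokine secreted by hepatocytes, was at 205, 137 and 117 CPM in WT and 52.6, 69.9 and 69.2 CPM in Lipa-/- livers. Its log2 fold change was -1.26 ± 0.29 (edgeR adjusted p = 0.00184), and without WT mouse 1 it was -0.99, just inside the fold threshold.

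Rnf43 and Znrf3 are sister ubiquitin ligases that remove Frizzled receptors from the cell surface. Rnf43 measured 10.6, 23.7 and 17.4 CPM in WT and 8.42, 5.02 and 11.7 CPM in Lipa-/- livers, with overlap. Its log2 fold change of -1.04 ± 0.35 (edgeR adjusted p = 0.0205) was the call nearest to the threshold and was lost without WT mouse 2, Lipa-/- mouse 4 or Lipa-/- mouse 5 (adjusted p 0.0649 to 0.112). Znrf3 was at 3.60, 6.38 and 7.63 CPM in WT and 5.52, 4.87 and 5.51 CPM in Lipa-/- livers. The 95% interval of its log2 fold change ran from -1.06 to 0.75. That interval includes both no change and a drop to the size of the Rnf43 value.

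Axin2, a scaffold of the complex that degrades beta-catenin and a feedback target in many tissues, measured 2.65, 7.84 and 6.50 CPM in WT and 3.69, 4.44 and 2.87 CPM in Lipa-/- livers. Lgr5, a receptor for R-spondins, measured 3.83, 8.47 and 5.37 CPM in WT and 3.63, 5.26 and 3.64 CPM in Lipa-/- livers. Both overlapped between groups, at -0.63 ± 0.50 (edgeR adjusted p = 0.313) and -0.50 ± 0.36 (0.264). Their 95% intervals reached -1.69 and -1.26, so a halving was within what these reads allow.

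**Figure D2:**
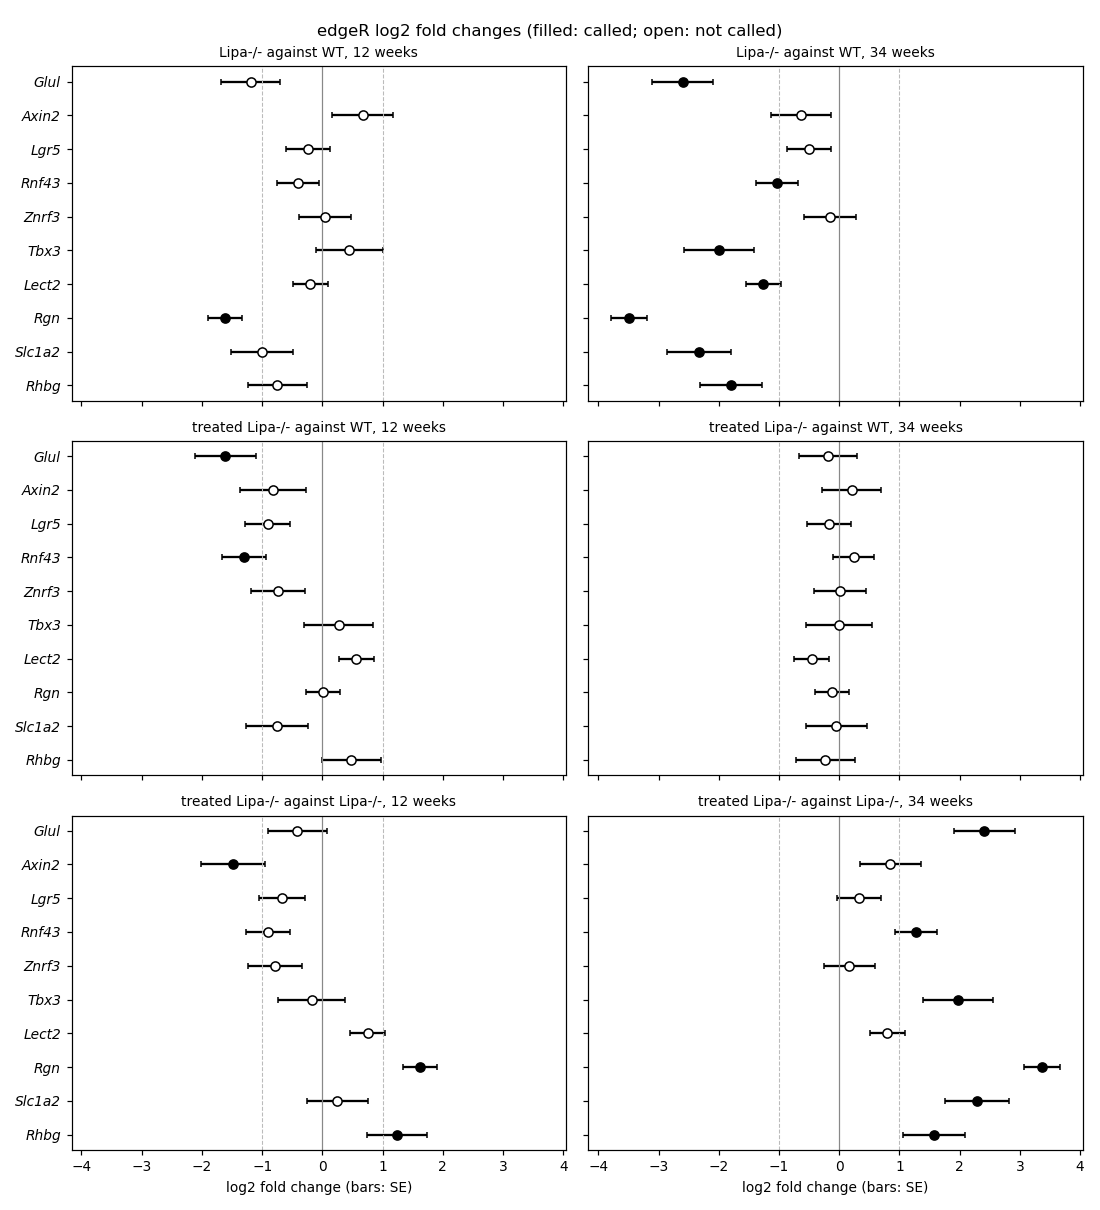
Log2 fold changes of the 10 genes with SE bars in the 6 comparisons within a time point, filled where the gene was called and open where it was not (dashed lines at -1 and 1). At 34 weeks 7 genes are filled on the left of the Lipa-/- panel and 6 on the right of the treated against untreated panel, with none filled between treated and WT.

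Hepatocyte marker RNA was lower in the same livers, and its part in these results was not tested. Divided by the summed hepatocyte markers of the same liver, Rgn was still lower in 34-week Lipa-/- livers by a mean log2 difference of -2.29 ± 0.45 (SE, n = 3 against 3) with no overlap. Glul had -1.34 ± 0.92, Slc1a2 -1.19 ± 0.77 and Tbx3 -0.94 ± 0.62, and for these and the other 6 genes the groups then overlapped. Rhbg was at -0.34 ± 1.00, Lect2 at -0.08 ± 0.37 and Rnf43 at 0.10 ± 0.49 on this scale. Axin2 (0.64 ± 0.80), Lgr5 (0.71 ± 0.65) and Znrf3 (1.07 ± 0.54) had positive values, opposite to their CPM differences. With library totals in place of TMM factors, which moves the median gene by 0.63 in this comparison, 3 genes kept their call: Glul, Rgn and Slc1a2.

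At 12 weeks, 1 of the 10 genes was called in Lipa-/- against WT livers, where 29.3% of all genes were called and 9.06% were called lower. It was Rgn, with 1278, 1558 and 1347 CPM in WT mice 1, 2 and 3 and 411, 616 and 335 CPM in Lipa-/- mice 5, 8 and 9. The groups did not overlap, and the log2 fold change was -1.62 ± 0.28 (edgeR adjusted p = 0.000254).

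Glul measured 923, 864 and 1015 CPM in the 12-week WT livers and 586, 500 and 141 CPM in the Lipa-/- livers. These did not overlap either, but the log2 fold change of -1.19 ± 0.49 did not pass (edgeR adjusted p = 0.0646). Slc1a2 measured 73.1, 89.4 and 102 CPM in WT and 81.1, 42.3 and 8.81 CPM in Lipa-/- livers (-1.0 ± 0.51, adjusted p = 0.136). Without Lipa-/- mouse 5, the liver with its own label prefix, both passed, at -1.54 (adjusted p = 0.0435) and -1.78 (adjusted p = 0.0144). With all livers Slc1a2 passed in 3 of 10 other settings: edgeR length offsets (-1.49, adjusted p = 0.0122), DESeq2 (-1.50, 0.00246) and limma on TPM (-1.31, 0.0334). Glul passed in 2 of 10, DESeq2 (-1.22, adjusted p = 0.0292) and the fit with length and GC trends removed (-1.35, 0.0213).

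The 12-week Lipa-/- livers differed widely among themselves. Mouse 5 had the highest level in its group for 9 of the 10 genes and mouse 9 the lowest for 9 of 10. Tbx3 spanned 3.88 to 31.9 CPM over these 3 livers, and Axin2 2.06 to 8.16 CPM. The same was seen to a lesser degree in WT at 34 weeks, where mouse 1 was lowest for 8 of 10 genes. Its Lect2 and Rgn levels were instead the highest of its group.

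The change of the Lipa-/- effect from 12 to 34 weeks was tested as an interaction, in which 0.0619% of all genes were called. None of the 10 genes passed. Rgn came nearest, at -1.87 ± 0.39 (edgeR adjusted p = 0.0868, unadjusted 0.000197), and DESeq2 called it at -1.82. Tbx3 had -2.44 ± 0.80 (adjusted p = 0.289). Fewer calls at 12 weeks are therefore not shown to be a smaller effect, gene by gene.

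Between the time points, WT livers had no call among the 10 genes, in a comparison where 0.323% of all genes were called by edgeR. At an unadjusted p under 0.05 there was 1, Tbx3, which measured 10.6, 8.33 and 13.5 CPM at 12 weeks against 25.2, 39.8 and 32.9 CPM at 34 weeks (1.59 ± 0.57, adjusted p = 0.374). DESeq2 called none either. In Lipa-/- livers, where 0.495% of all genes were called and 0.461% were called lower, Rgn was the 1 gene called, at -1.89 ± 0.29 (edgeR adjusted p = 0.00773). That call was lost without 34-week mouse 4 or mouse 5.

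In rAAV8-treated Lipa-/- mice at 34 weeks, no gene of the 10 was called against WT, and 0.220% of all genes were. By unadjusted p under 0.05 the count was also 0, as it was with DESeq2. Glul measured 1178, 849 and 767 CPM in treated mice 9, 11 and 12, within the WT range, and Rgn measured 1057, 1350 and 1379 CPM. The 95% intervals of the log2 fold changes were -1.22 to 0.83 for Glul, -0.70 to 0.46 for Rgn and -1.18 to 1.15 for Tbx3. A 2-fold difference in either direction is thus inside the interval for Tbx3 and, downward, for Glul. The same holds in either direction for Slc1a2 (-1.12 to 1.03). It holds downward for Rhbg (-1.26) and Lect2 (-1.07) and upward for Axin2 (1.26).

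Against untreated Lipa-/- livers at 34 weeks, 6 of the 10 genes were called higher in treated livers, where 31.5% of all genes were called and 12.8% were called higher. This comparison shares its untreated livers with the one against WT. Rgn had 3.37 ± 0.30 (edgeR adjusted p = 6.54e-07) and Glul 2.41 ± 0.51 (0.00118). Slc1a2 measured 115, 74.3 and 59.0 CPM in treated livers (2.29 ± 0.53, adjusted p = 0.0025) and Tbx3 46.6, 27.8 and 22.7 CPM (1.97 ± 0.58, adjusted p = 0.011).

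Rhbg, at 11.3, 6.01 and 11.5 CPM, had 1.57 ± 0.51 (edgeR adjusted p = 0.02), and Rnf43, at 24.6, 20.3 and 16.3 CPM, had 1.28 ± 0.35 (0.00718). None of these treated livers overlapped with the untreated ones. Lect2, at 77.6, 98.1 and 158 CPM, did not overlap either, but its log2 fold change of 0.80 ± 0.29 was under the fold threshold (adjusted p = 0.0342). Axin2, Lgr5 and Znrf3 did not pass, at 0.85, 0.33 and 0.17. The Rhbg and Rnf43 calls were lost with library totals (1.03 and 0.74) and with limma on TPM (0.87 and 0.79). Rhbg was called in 14 of 18 fits without 1 liver. The Tbx3 call was lost without Lipa-/- mouse 4 (1.62, edgeR adjusted p = 0.0624). Treated mouse 9 had the highest level of all 18 livers for 5 of the 10 genes. Divided by hepatocyte markers, the treated livers stood apart from the untreated ones for Rgn (2.35 ± 0.47) and Glul (1.44 ± 0.71). For all the other genes the groups overlapped on that scale. Axin2 (-0.18 ± 0.63), Lgr5 (-0.68 ± 0.57), Znrf3 (-0.91 ± 0.45) and Lect2 (-0.26 ± 0.54) had negative values there.

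At 12 weeks the treated livers were different. Against WT, 2 of the 10 genes were called lower and none higher, where 25.5% of all genes were called and 12.0% were called lower. Glul measured 196, 253 and 466 CPM in treated mice 10, 11 and 12, all below the WT livers and overlapping with the untreated Lipa-/- livers of that age (log2 fold change against WT -1.61 ± 0.50, edgeR adjusted p = 0.0204). Its call was lost without treated mouse 10, treated mouse 11 or WT mouse 3 (adjusted p 0.0619 to 0.0794). Rnf43 measured 5.05, 4.51 and 4.14 CPM against 12.2, 10.5 and 11.0 CPM in WT (-1.30 ± 0.36, adjusted p = 0.0131).

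Rgn, in contrast, measured 1114, 1446 and 1638 CPM in the treated 12-week livers, within 0.01 ± 0.28 of WT on the log2 scale. Lgr5 (2.82, 2.17 and 1.69 CPM) and Znrf3 (2.82, 2.39 and 2.99 CPM) lay below all WT livers but did not pass, at -0.91 (edgeR adjusted p = 0.0683) and -0.74 (0.201). Slc1a2 (51.2, 42.1 and 64.2 CPM) also lay below all WT livers without passing, at -0.75 (edgeR adjusted p = 0.257). Lgr5 was called lower in 3 of 10 other settings: edgeR length offsets (-1.28), library totals (-1.33) and DESeq2 (-1.23). Slc1a2 was called lower in 1 of 10, limma on TPM (-1.30). On the TPM scale Rgn was at 366 to 687 in these livers and 783 to 951 in WT, without overlap, and limma on TPM gave -0.67 (adjusted p = 0.0507). With length and GC trends removed the Rgn value was -0.65 (adjusted p = 0.061), so that its place at the WT level holds for CPM and not for these scales.

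Against untreated Lipa-/- livers at 12 weeks, 41.5% of all genes were called, 16.2% higher and 25.3% lower. Of the 10 genes, 2 were called higher, Rgn (1.62 ± 0.28, edgeR adjusted p = 0.000224) and Rhbg (1.24 ± 0.50, 0.0453). The Rgn groups did not overlap, but its call was lost with library totals (0.77), with limma on TPM (0.52) and with length and GC trends removed (0.62). Rhbg measured 23.1, 7.34 and 15.1 CPM in treated and 8.16, 6.6 and 4.45 CPM in untreated livers, with overlap. Its call was made in 6 of 18 fits without 1 liver and lost in 4 of 10 other settings, at 0.01 with limma on TPM. Axin2 was called lower, at 1.17, 1.36 and 2.45 CPM against 8.16, 3.81 and 2.06 CPM (-1.49 ± 0.53, adjusted p = 0.0267). Those Axin2 groups overlapped, and without untreated mouse 5 the value was -0.82. The Axin2 call was also lost without treated mouse 10 or 11 and was made in 6 of 10 other settings. It was not made with DESeq2 (-1.12, DESeq2 adjusted p = 0.0887) or edgeR length offsets (-1.16, edgeR adjusted p = 0.107), for example. The calls changed most with scaling here: with library totals, which moves the median gene by -0.87, 5 genes were called lower (Glul, Axin2, Lgr5, Rnf43 and Znrf3) and none higher. Limma on TPM called 3 lower (Glul, Axin2 and Rnf43) and none higher.

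Between 12 and 34 weeks, 4 of the 10 genes were called higher in treated livers, where 32.0% of all genes were called and 17.5% were called higher. Rnf43 had 2.16 ± 0.37 (edgeR adjusted p = 0.00144), Axin2 1.99 ± 0.54 (0.00762), Glul 1.61 ± 0.50 (0.0154) and Lgr5 1.24 ± 0.38 (0.0143). None of these groups overlapped between the time points. The Axin2 call was lost with edgeR length offsets (1.31, edgeR adjusted p = 0.0813) and with DESeq2 (1.26, DESeq2 adjusted p = 0.0622). Without 34-week treated mouse 9, 2 genes were called, Axin2 and Rnf43, and without mouse 12, 7 were, 6 higher and Lect2 lower (-1.19). In the interaction of treatment (treated against WT) with time, where 18.4% of all genes were called and 8.58% were called higher, 1 of the 10 passed: Rnf43 at 1.54 ± 0.50 (edgeR adjusted p = 0.0417). It was called in 8 of the 18 fits that left out 1 liver.

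Transcript length moved with the treated 12-week values. Over all genes, the median log2 fold change of treated against WT livers at 12 weeks went from 0.97 in the eighth of genes with the shortest transcripts to -0.39 in the eighth with the longest, and that of treated livers between time points from -1.09 to 0.69. Against untreated Lipa-/- livers at 12 weeks it went from 0.68 to -0.53. In Lipa-/- against WT livers at 34 weeks the same medians were -0.31 and 0.20. When the trends with length and GC content were removed within each liver, a step chosen after seeing the data, Glul was still called lower in treated 12-week livers (-1.26) while Rnf43 was not (-0.75, edgeR adjusted p = 0.0766). Against untreated livers Rhbg was the 1 gene still called (1.88), while Rgn (0.62, adjusted p = 0.0513) and Axin2 (-0.72, adjusted p = 0.216) were not. Between the time points Axin2 and Rnf43 were still called, Glul (1.15, adjusted p = 0.0527) and Lgr5 (0.86) were not, and the Rnf43 interaction fell to 0.92 (adjusted p = 0.145). At 34 weeks 6 of the 7 calls against WT remained, the exception being Lect2 at -0.82. Axin2, Rnf43, Slc1a2 and Lgr5 are also spread over transcripts of unequal length. Their mean lengths per liver were 1418 to 3997, 1472 to 4078, 2168 to 4989 and 2657 to 4497 bases. With such lengths as edgeR offsets the Axin2 call between the time points was lost, as given above.

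**Figure D3:**
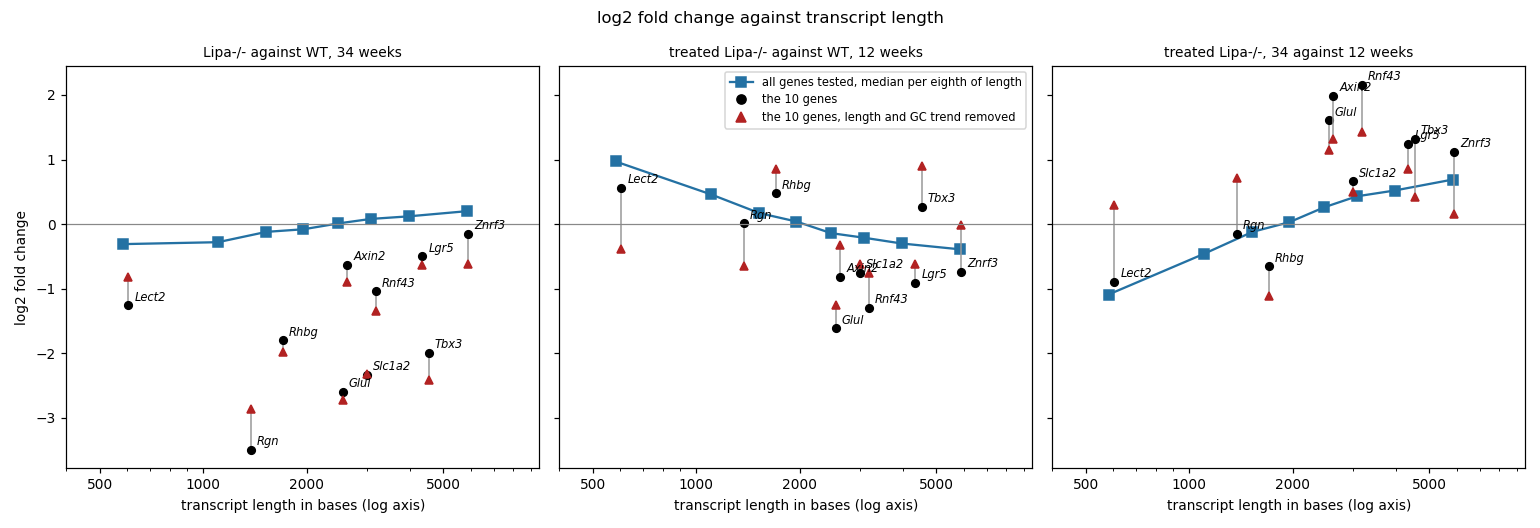
Log2 fold change against transcript length in bases (log axis) for 3 comparisons. Squares are medians over all genes tested in eighths of length, circles are the 10 genes, and triangles are the same genes once length and GC trends were removed. In treated against WT livers at 12 weeks the squares fall from 0.97 to -0.39, and the triangle of Rnf43 lies at -0.75 instead of -1.30.

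The ligands and the other parts of the pathway were read from lists chosen by role. Their counts stand beside all genes tested, of which 20.5% were called higher and 15.7% lower in Lipa-/- against WT livers at 34 weeks, and 20.2% and 9.06% at 12 weeks. Several list counts lie near these shares. Wnt2, the endothelial ligand of the central vein, was lower in Lipa-/- livers at both time points, at 0.909 ± 0.154 against 3.37 ± 0.827 CPM at 12 weeks and 0.840 ± 0.394 against 4.27 ± 0.769 CPM at 34 weeks (mean ± SD, n = 3). Its log2 fold changes were -1.89 ± 0.48 (edgeR adjusted p = 0.00525) and -2.34 ± 0.49 (0.000821), and neither pair of groups overlapped. In treated livers at 34 weeks Wnt2 was at 2.54 ± 1.32 CPM. Wnt9b, at 0.488 ± 0.278 against 1.41 ± 0.645 CPM at 34 weeks, did not pass (-1.53 ± 0.73, adjusted p = 0.0943). It was called in 0 of 18 fits without 1 liver and not with library totals (-0.97, adjusted p = 0.301), and was called at -2.07 with the length and GC trends removed. In treated 12-week livers it was called lower against WT (-2.30 ± 0.84, adjusted p = 0.0428). That call was lost with those trends removed (-1.52, adjusted p = 0.174) and made in 11 of 18 fits without 1 liver. It rests on few reads, 3 reads being 0.163 to 0.291 CPM in these treated livers. Wnt2 was at -0.16 ± 0.46 in the same comparison. At 34 weeks Rspo3 stood at 6.63 ± 0.332 CPM in Lipa-/- against 7.15 ± 0.267 CPM in WT livers (-0.11 ± 0.21, adjusted p = 0.704). The sum of 7 markers of central vein endothelium, which counts these 3 genes too, was 22.0 to 30.1 CPM in 34-week Lipa-/- and 23.2 to 27.1 CPM in WT livers. Each of the 3 genes had a lower mean in Lipa-/- livers, but the median of the sum was 28.9 CPM there and 23.5 CPM in WT. The other markers in the sum were thus higher on average, and the overlap of the sums does not show that its members were unchanged. The sum of 8 sinusoidal endothelial markers at 34 weeks was 178 to 229 CPM against 189 to 211 CPM. At 12 weeks sinusoidal markers were at 119 to 137 CPM in Lipa-/- and 157 to 204 CPM in WT livers, without overlap. Central vein markers, with Wnt2 itself in the sum, were at 14.7 to 21.7 CPM and 20.6 to 21.9 CPM, with overlap. The part of endothelial cells in the Wnt2 value was not tested.

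Of 13 genes for Wnt ligands, R-spondins and their secretion that were tested, 3 were higher and 3 lower in 34-week Lipa-/- livers (median -0.11). Wls, the carrier that brings Wnt proteins to the surface, rose to 24.9 ± 3.68 from 3.92 ± 0.191 CPM (2.67 ± 0.29, edgeR adjusted p = 2.05e-06). Wnt4 rose by 2.85 ± 0.44 (6.33e-05). Notum, a secreted enzyme that inactivates Wnt proteins and is itself a pericentral Wnt target, fell to 7.81 ± 0.761 from 30.8 ± 2.87 CPM (-1.98 ± 0.19, adjusted p = 5.94e-07). The third gene called higher was Wnt10a, with 0 reads in WT and treated livers and a mean of 1.00 CPM in Lipa-/- livers, named here after its values were seen.

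Among 12 receptors and co-receptors, 2 were higher and 2 lower at 34 weeks (median -0.18). Lgr4, the R-spondin receptor that most hepatocytes carry, fell to 17.0 ± 3.57 from 45.6 ± 5.23 CPM (-1.42 ± 0.20, edgeR adjusted p = 2.51e-05). Fzd4 fell by 1.24 on the log2 scale (SE 0.48, adjusted p = 0.0414; called in 11 of 18 fits without 1 liver) and Ror1 rose by 1.26 ± 0.28 (0.00141). With library totals Lgr4 and Fzd4 were at -0.79 and -0.65 and not called, and the medians of the 4 Wnt lists in this comparison were all positive, from 0.44 to 1.24.

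Of 23 intracellular transducers, 3 were higher and none lower (median 0.23), and in each fit that left out 1 liver 2 were higher. Csnk1e, a casein kinase, rose by 2.48 ± 0.36 (edgeR adjusted p = 3.27e-05). Ctnnb1 stood at 254 ± 11.5 against 161 ± 42.3 CPM, under the fold threshold (0.66 ± 0.25, adjusted p = 0.0366; 1.27 and called with library totals), and Tcf7l2 at 8.44 ± 0.941 against 11.1 ± 2.10 CPM (adjusted p = 0.376). In treated livers at 12 weeks 11 of the 23 were lower and none higher against WT, Ctnnb1 among them (-1.08 ± 0.25, adjusted p = 0.00662), where 12.0% of all genes were called lower and 13.6% higher. With the length and GC trends removed 8 were lower and 1 was higher, and leaving out 1 liver gave 4 to 12.

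The list of inhibitors and feedback genes had 7 higher and 1 lower of 16 in 34-week Lipa-/- livers (median 0.65). Dkk3, a Dickkopf-family protein, rose to 62.4 ± 9.20 from 1.99 ± 0.477 CPM (4.95 ± 0.37, edgeR adjusted p = 9.23e-08). Nkd2 rose by 4.99 ± 0.83 (0.000117) from 0.131 CPM in WT. That WT level is about 3 reads a liver (0.117 to 0.177 CPM in these WT livers), so the size of the Nkd2 rise is poorly fixed. The gene that fell was Sp5, a transcription factor induced by Wnt signalling, at 0.710 ± 0.0944 against 3.79 ± 0.414 CPM (-2.41 ± 0.48, adjusted p = 0.000573). At 12 weeks 4 were higher and 1 lower, with Dkk3 and Frzb, a decoy receptor, at 4.48 and 4.14. Summed markers of stellate cells and fibroblasts were 635 to 1468 CPM in 34-week Lipa-/- and 54.5 to 93.7 CPM in WT livers, and those of cholangiocytes 1019 to 1795 CPM and 40.7 to 53.0 CPM. Most of the cholangiocyte sum was 1 gene, Spp1, at 945 to 1740 CPM and 31.0 to 40.2 CPM. The other cholangiocyte markers were higher too but at low levels, such as Sox9 (36.1 ± 18.9 against 6.32 ± 2.49 CPM) and Krt19 (4.40 ± 1.34 against 0.953 ± 0.54 CPM). The part of stellate cells, fibroblasts and cholangiocytes in the rise of Dkk3, Wls and the others was not tested.

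**Figure D4:**
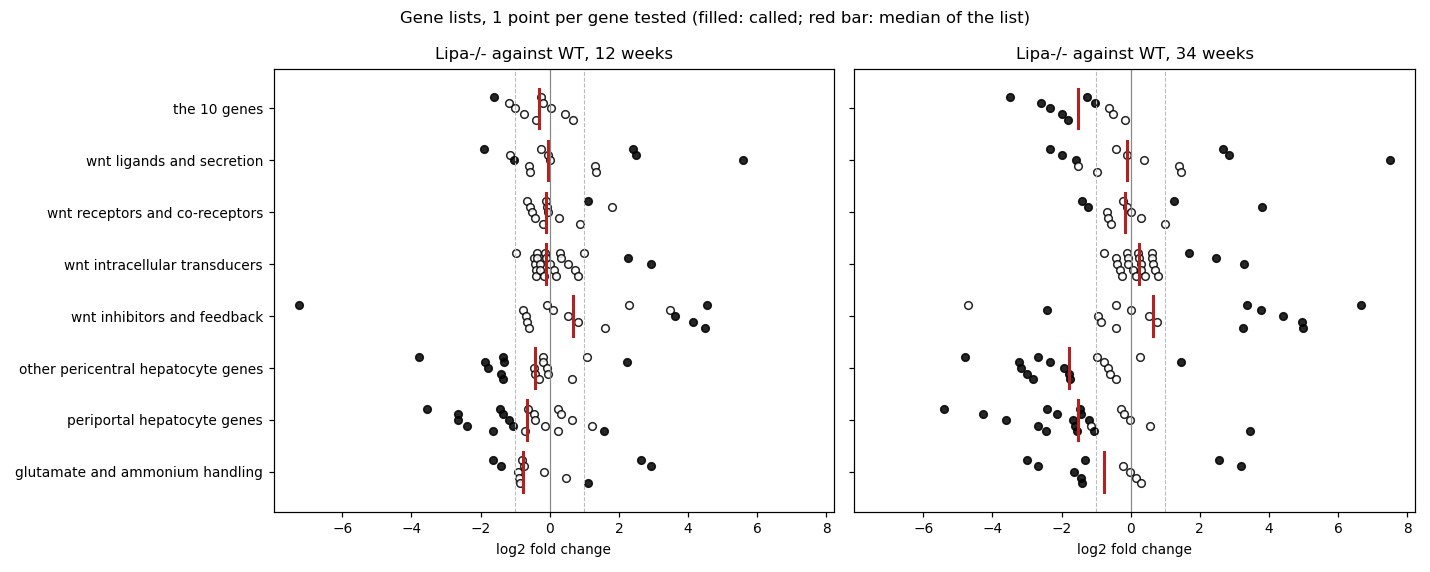
Log2 fold changes of the genes tested in each list, Lipa-/- against WT livers at 12 weeks (left) and 34 weeks (right), with called genes filled and the median of each list as a red bar. At 34 weeks the medians are -1.53 for the 10 genes, -1.77 for other pericentral genes and -1.51 for periportal genes, while the 4 Wnt lists have medians between -0.18 and 0.65 (0.44 to 1.24 with library totals).

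Pericentral genes outside the 10 fell as well, and so did periportal ones. Of 17 other pericentral genes, 10 were lower and 1 higher in Lipa-/- livers at 34 weeks (median -1.77), and 7 were lower and 1 higher at 12 weeks (median -0.43). With library totals the 12-week count was 2 lower and 3 higher (median 0.03). Cyp2e1, a cytochrome P450 that oxidises ethanol, fell to 537 ± 174 from 4853 ± 138 CPM at 34 weeks (-3.18 ± 0.39, edgeR adjusted p = 6.47e-06). Cyp1a2 fell by 3.24 on the log2 scale (SE 0.34, 1.42e-06), Cyp2c29 by 4.78 (SE 0.52, 1.74e-06) and Oat, ornithine aminotransferase, by 2.99 (SE 0.38, 8.46e-06). The gene that rose was Slc13a3, a dicarboxylate carrier, at 1.46 ± 0.41 (0.00708).

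Of 20 periportal genes, 14 were lower and 1 higher at 34 weeks (median -1.51), and 9 were lower and 1 higher at 12 weeks (median -0.67), or 5 and 3 with library totals. Cyp2f2, the usual periportal P450 marker, fell to 15.4 ± 20.9 from 654 ± 163 CPM (-5.41 ± 0.85, edgeR adjusted p = 6.63e-05). Hal, histidine ammonia-lyase, fell by 4.28 (SE 0.49, 2.82e-06) and Gls2, the liver glutaminase, by 2.69 (SE 0.38, 2.29e-05). Cdh1, E-cadherin, was the gene called higher, at 68.2 ± 6.40 against 6.27 ± 4.49 CPM (3.46 ± 0.39, adjusted p = 2.87e-06). WT livers themselves fell in Cdh1 from 38.9 ± 6.17 CPM at 12 weeks (-2.65, adjusted p = 0.00505), and Cdh1 is also made by cholangiocytes. With library totals 10 of the pericentral and 7 of the periportal genes were lower at 34 weeks. The decrease at 34 weeks thus covered both ends of the lobule in these lists, and a difference between them was not tested.

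Genes that handle glutamate and ammonium, which share Oat and Gls2 with the lists above, had 6 lower and 2 higher of 12 at 34 weeks (median -0.76). Beside the fall of Glul, Slc1a2 and Rhbg, the glutamine carrier Slc1a5 rose by 3.20 ± 0.41 (edgeR adjusted p = 1.04e-05). In treated livers at 34 weeks no gene of the 7 lists was called against WT except Cdh1, higher at 29.1 ± 4.88 CPM (2.23 ± 0.38, adjusted p = 0.0156). That call was made in 15 of 18 fits without 1 liver and lost with length and GC trends removed (1.99, adjusted p = 0.0951). In treated 12-week livers Slc1a5 (8.50 ± 1.85 CPM) was still higher than in WT, by 1.78 ± 0.40 (adjusted p = 0.00595), whereas Gls2 was at the WT level (448 ± 180 against 438 ± 37.6 CPM).

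The order of the groups differed from gene to gene, and most neighbours in it overlapped. For Glul the order of mean CPM was WT at 34 weeks, WT at 12 weeks, treated at 34 weeks, Lipa-/- at 12 weeks, treated at 12 weeks and Lipa-/- at 34 weeks. The 1 pair of neighbours whose livers did not overlap was treated at 34 weeks above Lipa-/- at 12 weeks. Rgn had 2 such gaps, between treated livers at 34 weeks and Lipa-/- livers at 12 weeks and between the Lipa-/- groups of 12 and 34 weeks. For Axin2, Lgr5, Rnf43, Tbx3 and Slc1a2 no neighbours were separated. Over the 18 livers, the genes most like Glul in log2 CPM among 12599 others were Cmah, Slc35e2 and Kcnn1 (Pearson r 0.949, 0.947 and 0.933). For Axin2 they were Vps9d1, Stat5a and Trim11 (0.936, 0.919 and 0.887). The livers share groups, depth and the length trend, and these r values are a description.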

How the data were processed

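Liver polyA RNA of 18 mice was sequenced in paired-end reads. The authors estimated transcript abundance with Salmon against mouse cDNA (GRCm39) and summed it to genes with tximport in R 4.3.0. The deposited tables used here hold estimated counts per gene (19.4% of values are not whole), TPM, and a length in bases for every gene and liver (the mean over its transcripts). A deposited table of the authors' own comparisons (DESeq2 1.40.1), which holds their fold changes and p-values, was not used.

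Estimated counts were rounded, genes with more than 100 summed reads were kept (14533 of 35441), and all 18 livers were fitted in 1 model with 6 groups by edgeR's quasi-likelihood test (edgeR 4.0.16, R 4.3.3, TMM factors, Benjamini-Hochberg adjustment over all genes tested). Genes were called at an adjusted p under 0.05 and an absolute log2 fold change over 1, thresholds that follow the study's methods. The alternatives were DESeq2 1.42.0 with length offsets, edgeR with length offsets, upper quartile factors, library totals, no filter, filterByExpr in place of it, a model of only the groups in a comparison, adjusted p alone, limma 3.58.1 on log2(TPM + 0.5) and leaving out each liver. The fits were also run on simulated counts with few changed genes and no trend with transcript length. That setting is unlike these data, so it does not show how the fits behave with many changed genes or a length trend. Depth was 17527824 to 25833059 reads a liver, 3 reads corresponding to 0.0946 to 0.291 CPM. With 3 livers against 3 an exact permutation test could not go below p = 0.1, so none is given.

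The 10 genes and all lists were chosen with earlier results of these data known. The text names the 10 genes, a fixed set of ligands, receptors and zonation markers, the 2 called genes with the largest change in each direction of each list (mean of at least 1 CPM), or examples of these, and for Glul and Axin2 the 3 genes of highest correlation. GC content came from GENCODE vM39 transcripts and was known for 98.4% of the genes tested. The values of 1 listed gene are not reported here.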

Additional observations from a re-analysis of the deposited data

Results flagged for a closer look

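The effect of treatment, measured as treated Lipa-/- against WT livers, differed between the time points for 1 of the 10 genes. Rnf43 was lower in treated than in WT livers at 12 weeks (log2 fold change -1.30) and not called at 34 weeks (0.24), and the edgeR interaction was 1.54 (adjusted p = 0.0417, 95% interval 0.49 to 2.59). All 3 treated 12-week livers were below all 3 WT livers of that time, while at 34 weeks the groups overlapped. Among all genes 18.4% were called in this interaction, and the transcript length trend of the treated 12-week livers, whose part was not tested gene by gene, moves with it: with length and GC trends removed the value was 0.92 (adjusted p = 0.145). Groups of 3 livers are too small for a test of single livers that stand apart.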

How the results depend on the processing

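Of 3040 values of the 10 genes under the alternatives, 2907 kept their status as called or not called. Of the others 80 lost a call, 53 gained one and none reversed a call, while 144 that were not called changed sign. Most of these values were not called in the reported fit and could not lose a call, and the fits share most of their livers. Counts of the 10 genes called were within 1.5 times the main count except as follows, and the cause was not tested. In Lipa-/- against WT livers at 12 weeks (1 called) edgeR with length offsets, limma on TPM and the fit with length and GC trends removed called 2 and DESeq2 called 3, and at 34 weeks (7 called) library totals called 3 and limma on TPM 4. In treated against WT livers at 12 weeks (2 called) the fit without trends called 1. In treated against untreated Lipa-/- livers at 12 weeks (3 called) edgeR with length offsets and the fit without trends called 1, and library totals and adjusted p alone called 5. Limma on TPM called 3 there too, but all lower (Glul, Axin2 and Rnf43), so that 1 gene was shared with the 2 higher and 1 lower of the reported fit. Between the time points, Lipa-/- livers (1 called) had 0 calls in a fit of these groups alone and 2 with DESeq2, and treated livers (4 called) had 2 without trends. The Lipa-/- interaction (0 called) had 1 call with DESeq2, and the treated interaction (1 called) had 0 with edgeR length offsets, with DESeq2, without trends and in a fit of these groups alone.

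Leaving out 1 liver at a time gave 1 to 3 calls in Lipa-/- against WT livers at 12 weeks and 5 to 7 at 34 weeks. It gave 1 to 2 in treated against WT livers at 12 weeks, 0 at 34 weeks, 1 to 4 in treated against untreated livers at 12 weeks and 4 to 6 at 34 weeks. Between the time points it gave 0 in WT, 0 to 2 in Lipa-/- and 2 to 7 in treated livers, 0 in the Lipa-/- interaction and 0 to 2 in the treated interaction. The removal of trends was chosen after seeing the data. Mouse numbers are shared by the WT groups of both time points, but these are different animals, and their deviations from the group means correlated at 0.0763, -0.24 and 0.46 for mice 1, 2 and 3, so the number was not used as a pairing. With the mouse number as a replicate block, 0 of the 10 genes were called in WT between the time points, as without it. The precision that depth allows was not compared between genes.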
